A study of Homo sapiens with 6 samples.

Results

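The 10 genes described here are 4 immediate early response (IER) genes, IER2, IER3, IER5 and IER5L, and 6 genes of the YAP pathway, CYR61, CTGF, AMOTL2, LATS2, YAP1 and WWTR1. They were chosen by name, as a family and a pathway, from the 29744 genes in the table of gene expression, with earlier results of these data known. CYR61 and CTGF are the older symbols used in the table for the genes now called CCN1 and CCN2. Expression was measured by RNA-seq in LNCaP, an established androgen-sensitive human prostate cancer cell line, in 2 groups of 3 biological replicates. Cells of the first group received 250 nM CDKI-73, an inhibitor of the transcriptional kinase CDK9, for 4 h, and cells of the second received the vehicle, DMSO, for 4 h. The authors state that CDKI-73 acts on CDK1, CDK2 and CDK7 in kinase assays too, and which kinase a change depends on was not tested. All cells were grown in RPMI-1640 medium with fetal bovine serum, all are of 1 cell line, and no other dose, time or cell line was part of the RNA-seq.

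Immediate early genes are transcribed within minutes of a stimulus without new protein synthesis, and their mRNAs are as a rule short-lived. YAP (encoded by YAP1) and TAZ (encoded by WWTR1) are transcriptional coactivators that bind DNA through TEAD factors, and the Hippo kinase cascade, which ends in the kinases LATS1 and LATS2, phosphorylates both and keeps them out of the nucleus. CYR61, CTGF, AMOTL2 and LATS2 are well-known targets of YAP and TAZ, and AMOTL2 and LATS2 also restrain YAP. CDK9 acts on RNA polymerase II held near the start of genes and lets it go on to make full-length transcripts.

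Values are CPM, that is, reads of a gene divided by all reads counted in that sample and scaled to 1 fixed total. Levels, and the percent of a level left, are thus relative to all reads of the sample and are not amounts of RNA per cell. A change in total RNA per cell cannot be read from these values. Counted reads, inferred from the step between CPM values, came to 46.1 to 52.0 M per CDKI-73 sample and 52.9 to 60.9 M per DMSO sample, so 1 read was worth 0.0164 to 0.0217 CPM. All 8 luminal prostate markers were detected, with summed levels of 6070 to 6396 CPM in CDKI-73 samples and 7041 to 7426 CPM in DMSO samples, while KRT5, TP63, COL1A2, DCN, PECAM1, CDH5, PTPRC and CD3E did not exceed 0.04 CPM in any sample. Of the 14 markers of other cell types, KRT14, COL1A1, ACTA2, VWF and CD68 exceeded 1 CPM, and the 5 stromal ones summed to 16.6 to 18.2 CPM in CDKI-73 samples and 11.5 to 12.4 CPM in DMSO samples, whose part in the results was not tested. CDKI-73 replicate 3 stood apart from the other CDKI-73 samples, with a chi-square per gene of 28.1 and 30.8 against them, where replicates 1 and 2 gave 3.55. The changes of the 8 tested members are therefore also given without it. Among DMSO samples, the chi-square per gene was 9.07 and 15.6 for replicate 1 against replicates 2 and 3, and 4.63 between replicates 2 and 3. In bulk RNA, fewer cells with a transcript and less of it per cell cannot be told apart.

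The promoter letters of 4 members are shown because they carry the short motifs at which YAP-bound TEAD factors and the general CCAAT-binding factor NF-Y are known to act. Each line is the 250 bases upstream of the annotated start site, 5′ to 3′ on the strand of the gene, from the RefSeq promoter table of GRCh38.p14, at chr1:181088450-181088699 (+) for IER5, chr9:129178262-129178511 (-) for IER5L, chr3:134374448-134374697 (-) for the second of the AMOTL2 start sites and chr6:131951373-131951622 (-) for CTGF. Capitals mark matches to the TEAD core, which reads GGAATG on the forward strand and in reverse appears as CATTCC, to the CCAAT box, which reads ATTGG on the opposite strand, and to the TATA box, TATAAA on the strand of the gene. No 2 of these motifs overlapped in the windows shown.
IER5: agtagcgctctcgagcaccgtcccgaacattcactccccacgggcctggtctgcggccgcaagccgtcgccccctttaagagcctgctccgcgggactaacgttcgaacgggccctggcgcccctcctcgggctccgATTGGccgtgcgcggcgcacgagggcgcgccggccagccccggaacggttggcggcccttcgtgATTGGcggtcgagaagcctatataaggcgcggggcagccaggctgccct
IER5L: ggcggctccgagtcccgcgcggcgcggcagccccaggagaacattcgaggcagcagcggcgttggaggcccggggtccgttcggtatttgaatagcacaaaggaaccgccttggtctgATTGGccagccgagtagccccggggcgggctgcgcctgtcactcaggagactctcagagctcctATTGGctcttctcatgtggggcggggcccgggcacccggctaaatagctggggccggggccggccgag
AMOTL2: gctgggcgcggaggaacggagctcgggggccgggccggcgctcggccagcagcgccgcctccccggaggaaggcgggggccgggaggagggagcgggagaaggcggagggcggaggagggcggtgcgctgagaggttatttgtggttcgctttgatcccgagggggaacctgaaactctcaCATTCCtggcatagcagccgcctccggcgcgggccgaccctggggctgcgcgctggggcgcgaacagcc
CTGF: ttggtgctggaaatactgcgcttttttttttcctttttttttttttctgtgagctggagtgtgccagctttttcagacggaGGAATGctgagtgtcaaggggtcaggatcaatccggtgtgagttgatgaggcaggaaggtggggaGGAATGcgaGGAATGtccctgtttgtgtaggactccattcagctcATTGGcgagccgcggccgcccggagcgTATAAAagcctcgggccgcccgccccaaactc

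The table held promoter windows for 8 of the 10 members, and not for CYR61 and IER3. Of 35116 such windows, 11.9% held the TEAD core on either strand, 32% the CCAAT box on either strand, 6.8% TATAAA on the strand of the gene and 1.16% a CArG box, the element bound by the serum response factor SRF. The CTGF window had GGAATG 3 times, with first bases at -169, -104 and -95 from the start site, ATTGG at -59 and TATAAA at -32. The AMOTL2 window shown had CATTCC at -69, while the other AMOTL2 window (chr3:134375418-134375667) matched none of the 4 motifs. The YAP1 window had GGAATG at -162. The windows of IER5 and IER5L each had ATTGG at 2 places, -113 and -49 in IER5 and at -132 and -68 in IER5L. In both, the first bases of the pair lay 64 bases apart, a spacing seen in 17 of the 35116 windows (0.048%) and noticed only on reading these letters, while 3.4% of windows held ATTGG at 2 or more places. No CArG box was matched in a member, and none of the 4 motifs was matched in the windows of IER2, LATS2 and WWTR1. A match describes letters and not a bound site.

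Of the 10 members, 8 had a mean of at least 0.5 CPM and were tested, and 6 of these were called lower after CDKI-73, with a change of 2-fold or more past an adjusted p of 0.05, namely IER2, IER5, IER5L, CYR61, AMOTL2 and LATS2. Over all 13373 genes tested, 22.3% were called lower by this rule. None of the 8 was called higher, against 1.11% of all genes tested. The count called lower is read only beside its background, since a gene high in DMSO alone could pass the filter on the mean. Earlier results of these data were also known when the genes were chosen, so these shares are descriptions. In 7 of the 8, every CDKI-73 sample was below every DMSO sample, which held for 50% of all genes tested, and in 0 of the 8 was every CDKI-73 sample above every DMSO sample, which held for 25.9%. IER5, CYR61 and AMOTL2 had a log2 fold change of -3 or less, as had 2.53% of all genes tested. YAP1 was lower by far less than 2-fold, and WWTR1 did not pass the test. Changes are differences of log2(CPM + 0.1), CDKI-73 minus DMSO, with the standard error (SE), the 95% interval and the Benjamini-Hochberg adjusted p of limma, and the median gene changed by -0.18. Adding 0.1 to each value shrinks the changes of weakly expressed genes. Fold values given with these changes are for CPM + 0.1, while the percent of the DMSO level left is a ratio of mean CPM without this addition.

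**Figure D1:**
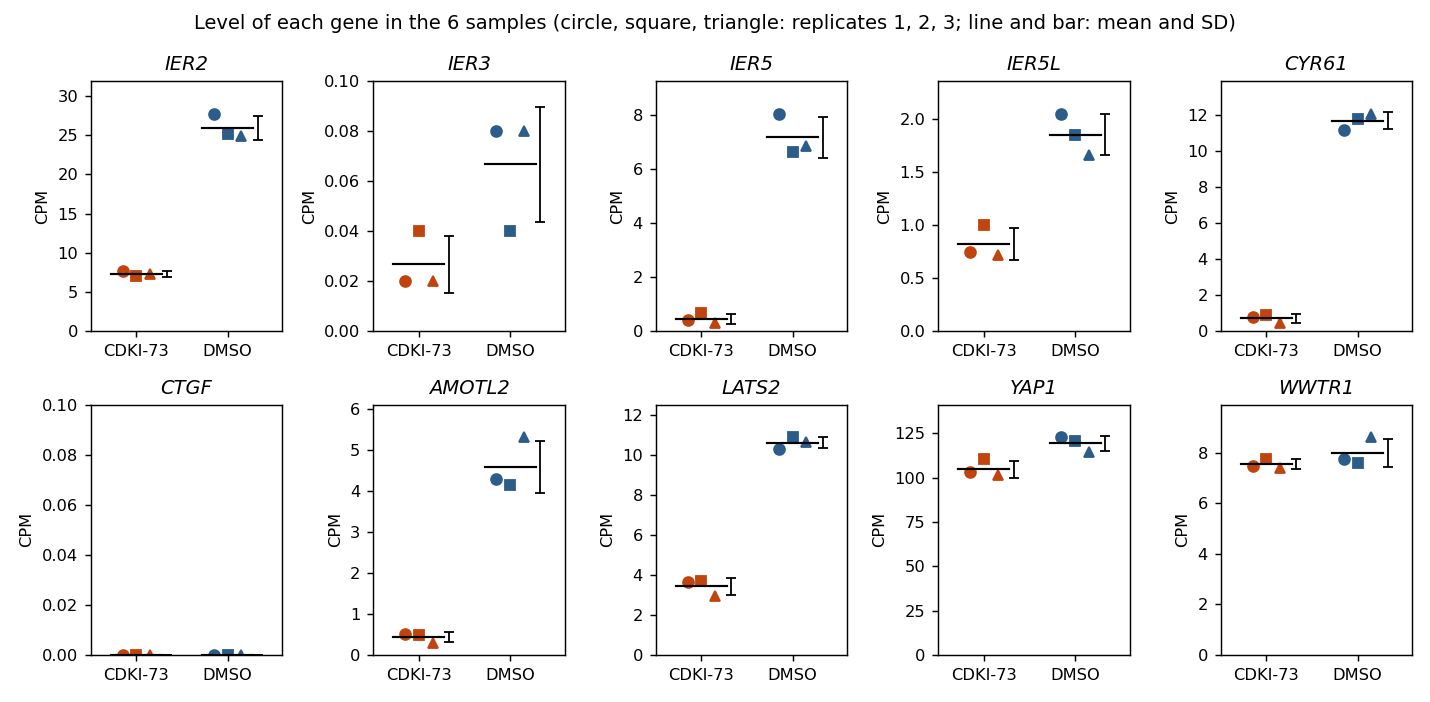
Level of each of the 10 genes in CPM (vertical axis, from 0, its own scale in each panel) in the 3 CDKI-73 samples (red, left) and the 3 DMSO samples (blue, right), with the mean as a line and the SD as a bar beside it. The CDKI-73 samples lie below all DMSO samples for IER2, IER5, IER5L, CYR61, AMOTL2, LATS2 and YAP1, the groups overlap for IER3 and WWTR1, and CTGF is listed at 0 in all 6 samples.

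IER5, which encodes a regulator of the heat shock factor HSF1, had the largest change of the 3 tested IER genes. It is a gene without introns at chr1:181088700-181092900 (+, 4201 bases, 1 exon), where positions here and below are those of GENCODE v44 on hg38. IER5 had 0.40, 0.67 and 0.30 CPM in the CDKI-73 samples, against 8.04, 6.61 and 6.85 CPM in the DMSO samples. The groups were far apart, with CDKI-73 replicate 2 the highest and replicate 3 the lowest of the treated samples. The mean was 0.457 ± 0.191 CPM after CDKI-73 and 7.17 ± 0.766 CPM in DMSO (SD, n = 3 each), so that 6.37% of the DMSO level was left after CDKI-73. On the log2 scale IER5 changed by -3.76 (SE 0.23, 95% interval -4.28 to -3.23, limma adjusted p = 1.45e-06), a 13.5-fold lower level, and 0.755% of tested genes ranked at or below it. In inferred reads, IER5 had 21, 35 and 14 in the CDKI-73 samples, against 490, 360 and 362 in the DMSO samples.

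IER5L, the paralogue of IER5, is also a gene without introns, at chr9:129175552-129178261 (-, 2710 bases, 1 exon). It had 0.75, 1 and 0.72 CPM in the CDKI-73 samples, against 2.05, 1.85 and 1.66 CPM in the DMSO samples. All treated samples were lower than all DMSO samples, and CDKI-73 replicate 2 came closest to them. IER5L changed by -1.09 on the log2 scale (SE 0.16, 95% interval -1.45 to -0.73, limma adjusted p = 3.05e-04), or 2.13-fold lower in CPM + 0.1, with 44.4% of the DMSO level left. It kept its direction but was less than 2-fold lower with samples scaled to the median of gene ratios (-0.90) or to the upper quartile (-0.63) and with 1 CPM added (-0.65). IER5L thus lay just past the 2-fold rule, and 20.6% of tested genes ranked at or below it. The 2 paralogues exchanged their order between the groups, in CPM and per length of transcript alike. The CPM ratio of IER5 to IER5L was 0.533, 0.670 and 0.417 in the CDKI-73 samples and 3.92, 3.57 and 4.13 in the DMSO samples. On the log2 scale this within-sample ratio differed by -2.67 (exact permutation test, two-sided, p = 0.1, the smallest p that 3 samples against 3 can give).

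IER2, an immediate early gene whose product acts in transcriptional regulation, was the most abundant IER gene per length of transcript in both groups. It lies at chr19:13150411-13154911 (+, 4501 bases, 2 exons in the canonical transcript). IER2 had 7.72, 7.02 and 7.25 CPM in the CDKI-73 samples, against 27.74, 25.18 and 24.85 CPM in the DMSO samples. The replicates lay close together in both groups, and no treated sample came near a DMSO sample. This was a log2 fold change of -1.81 (SE 0.07, 95% interval -1.97 to -1.64, limma adjusted p = 1.48e-07), or 3.50-fold lower in CPM + 0.1, with 28.3% of the DMSO level left. Its SE was the smallest of the 6 called members.

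IER3, known for its part in the control of apoptosis, was hardly detected. It lies at chr6:30743199-30744548 (-, 1350 bases, 2 exons). It had 0.02, 0.04 and 0.02 CPM in the CDKI-73 samples, against 0.08, 0.04 and 0.08 CPM in the DMSO samples. These values stand for 1, 2 and 1 inferred reads after CDKI-73 and 5, 2 and 4 reads in DMSO, and the groups overlap. The ratio of CPM from the summed reads, CDKI-73 over DMSO, was 0.408 with an exact 95% counting interval of 0.095 to 1.38. This interval covers counting error only and includes 1, so by it no difference was detectable at this depth. IER3 did not reach the mean of 0.5 CPM needed for the test. With no filter on the mean, its log2 fold change was -0.39 (95% interval -0.73 to -0.05, limma adjusted p = 0.0613). It did not pass there either, and all its values lie below the 0.1 CPM added.

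CYR61, a secreted matricellular protein of the CCN family, had the largest change of the 8 tested members. It lies at chr1:85580761-85584589 (+, 3829 bases, 5 exons). CYR61 had 0.81, 0.91 and 0.43 CPM in the CDKI-73 samples, against 11.15, 11.77 and 12.05 CPM in the DMSO samples. The DMSO samples were alike, and CDKI-73 replicate 3 was the lowest of the treated samples. The mean was 0.717 ± 0.253 CPM after CDKI-73 and 11.7 ± 0.461 CPM in DMSO (SD, n = 3 each), with 6.15% of the DMSO level left. CYR61 thus changed by -3.90 on the log2 scale (SE 0.22, 95% interval -4.41 to -3.39, limma adjusted p = 1.02e-06), a 14.9-fold lower level, and 0.576% of tested genes ranked at or below it. The inferred reads were 42, 47 and 20 in CDKI-73 samples, against 679, 641 and 637 in DMSO samples.

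CTGF, the CCN family member most often read with CYR61 as a YAP target, is listed at 0 in all 6 samples. It lies at chr6:131948176-131951372 (-, 3197 bases, 5 exons). A count of 0 allows a level of up to 0.058 to 0.065 CPM in the CDKI-73 samples and 0.049 to 0.057 CPM in the DMSO samples (3 reads), covering counting error only. No fold change can be given, and no ratio of CYR61 to CTGF could be formed. None of 80 ribosomal protein genes is listed at 0 throughout, while 7603 of the 29744 genes are. Of the 6 CCN family genes, only CYR61 and NOV passed the filter, and NOV had a log2 fold change of 0.28, which did not pass the adjusted p.

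AMOTL2, a scaffold of the angiomotin family at cell junctions that binds YAP, lies at chr3:134355347-134375479 (-, 20133 bases, 10 exons). It had 0.52, 0.48 and 0.30 CPM in the CDKI-73 samples, against 4.28, 4.15 and 5.30 CPM in the DMSO samples. The groups were far apart, and replicate 3 was the lowest sample after CDKI-73 and the highest in DMSO. For AMOTL2 the log2 fold change came to -3.15 (SE 0.19, 95% interval -3.59 to -2.71, limma adjusted p = 1.43e-06), an 8.87-fold lower level, with 9.47% of the DMSO level left. In inferred reads AMOTL2 had 27, 25 and 14 in CDKI-73 samples, against 261, 226 and 280 in DMSO samples.

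LATS2, a kinase that phosphorylates YAP and TAZ, lies at chr13:20973036-21061586 (-, 88551 bases, 8 exons). It had 3.66, 3.72 and 2.93 CPM in the CDKI-73 samples, against 10.32, 10.90 and 10.69 CPM in the DMSO samples. The groups did not overlap, and the DMSO samples were closer to each other than the treated ones. The resulting log2 fold change of LATS2 was -1.61 (SE 0.10, 95% interval -1.85 to -1.37, limma adjusted p = 2.19e-06), or 3.05-fold lower in CPM + 0.1, with 32.3% of the DMSO level left. LATS2 and IER2 thus had changes of like size, and both were smaller than those of IER5, CYR61 and AMOTL2, whose 95% intervals do not reach them.

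YAP1 lies at chr11:102110447-102233424 (+, 122978 bases, 9 exons). It had 103.03, 110.35 and 101.34 CPM in the CDKI-73 samples, against 122.79, 121.01 and 114.68 CPM in the DMSO samples. All treated samples were below all DMSO samples, by a margin of a few CPM between the nearest ones. YAP1 changed by -0.19 on the log2 scale (SE 0.05, 95% interval -0.31 to -0.07, limma adjusted p = 9.96e-03), with 87.8% of the DMSO level left. Relative to the median of all tested genes the change was -0.01, and 49.4% of tested genes ranked at or below YAP1. The direction depended on the scaling. With samples scaled to the median of gene ratios the YAP1 change was 0.013, with scaling to the upper quartile it was 0.31, and with scaling to the reference genes GAPDH, HPRT1 and ACTB it was -0.60.

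WWTR1, which encodes TAZ, lies at chr3:149517235-149736714 (-, 219480 bases, 7 exons). It had 7.5, 7.77 and 7.4 CPM in the CDKI-73 samples, against 7.75, 7.60 and 8.62 CPM in the DMSO samples. The groups overlapped, with CDKI-73 replicate 2 above DMSO replicates 1 and 2. WWTR1 changed by -0.08 on the log2 scale (SE 0.08, 95% interval -0.26 to 0.10, limma adjusted p = 0.388), and 94.6% of the DMSO level was left. This direction too flipped with scaling, to 0.12 with the median of gene ratios and 0.41 with the upper quartile, while it was -0.48 with the reference genes. The CPM ratio of YAP1 to WWTR1 was 13.7, 14.2 and 13.7 in CDKI-73 samples and 15.8, 15.9 and 13.3 in DMSO samples. The log2 difference was -0.11 (exact permutation test, two-sided, p = 0.4, where 0.1 is the smallest possible). DMSO replicate 3 lay below all CDKI-73 samples, and DMSO replicates 1 and 2 above them. Without DMSO replicate 3 the difference was -0.20, and with any other sample left out it was smaller in size.

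**Figure D2:**
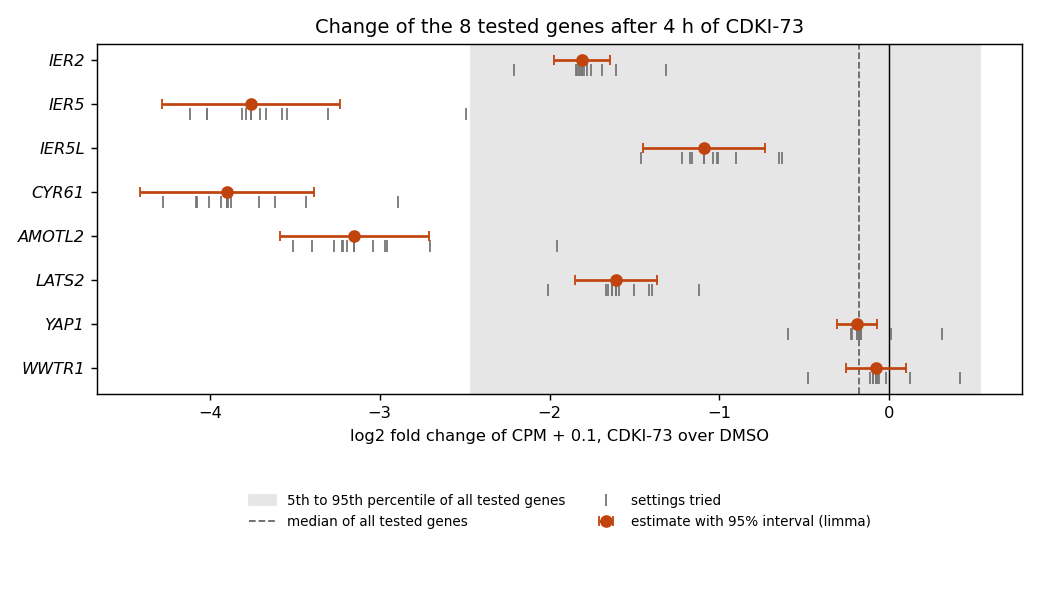
Log2 fold change of CPM + 0.1, CDKI-73 over DMSO (horizontal axis), of the 8 tested genes, with the limma estimate and its 95% interval as point and bar and each other setting tried as a grey tick below. IER5, CYR61 and AMOTL2 lie left of the shaded 5th to 95th percentile of all tested genes, IER2, IER5L and LATS2 lie within it and below the median of -0.18, and the ticks of YAP1 and WWTR1 fall on both sides of 0.

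IER2, IER5, IER5L, CYR61, AMOTL2 and LATS2 were called lower with each sample left out in turn. Without CDKI-73 replicate 3, the log2 fold changes were -1.80 for IER2, -3.55 for IER5, -1.01 for IER5L, -3.62 for CYR61, -2.96 for AMOTL2 and -1.50 for LATS2, and 6 members were again called lower. YAP1 then changed by -0.16 and WWTR1 by -0.06. CDKI-73 replicate 3 was the lowest treated sample in 7 of the 8 tested members, all but IER2, while it was the lowest treated sample for 45.2% of all genes tested.

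Levels of different genes can be set side by side once divided by transcript length, here as CPM per kilobase of the GENCODE v44 canonical transcript. After CDKI-73 the order of mean levels was YAP1 (19.4), IER2 (3.47), WWTR1 (1.5), LATS2 (0.620), CYR61 (0.315), IER5L (0.304), IER5 (0.109), AMOTL2 (0.0890), IER3 (0.0216) and CTGF (0), with neighbours CYR61 and IER5L, and IER5 and AMOTL2, within each other's spread. In DMSO the order was YAP1 (22.1), IER2 (12.3), CYR61 (5.12), LATS2 (1.92), IER5 (1.71), WWTR1 (1.59), AMOTL2 (0.940), IER5L (0.684), IER3 (0.0539) and CTGF (0), where the mean ± SD range of IER5 overlapped those of LATS2 and WWTR1. YAP1 was thus the most abundant of the 10 transcripts per length in both groups. WWTR1 stood ahead of every called member except IER2 in CDKI-73 samples, and behind YAP1, IER2, CYR61, LATS2 and IER5 in DMSO samples.

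The 10 genes differ in structure, which the choice by name did not use. Among tested protein-coding genes, the median log2 fold change was -1.24 for the 230 genes with 1 exon, -1.09 for the 490 with 2 exons, -0.31 for the 2450 with 3 to 5, -0.13 for the 3532 with 6 to 10 and -0.13 for the 5144 with more than 10. The shares called lower were 56.1%, 52.4%, 32.2%, 20.5% and 15.8% in the same order of exon number. IER5L was near the middle of its class, with 54.3% of 1-exon genes lower than it, and 31.8% of 2-exon genes were lower than IER2. IER5 lay lower in its class, with 9.13% of 1-exon genes below it. CYR61 and AMOTL2 were near the low end, with 1.14% and 0.991% of the genes of their classes below them. For LATS2 this share was 10.4%, for YAP1 46.9% and for WWTR1 53.8%. By length of the gene, the share called lower ran between 19.6% and 24.8% over 5 classes. These are descriptions across genes, which are not independent replicates.

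**Figure D3:**
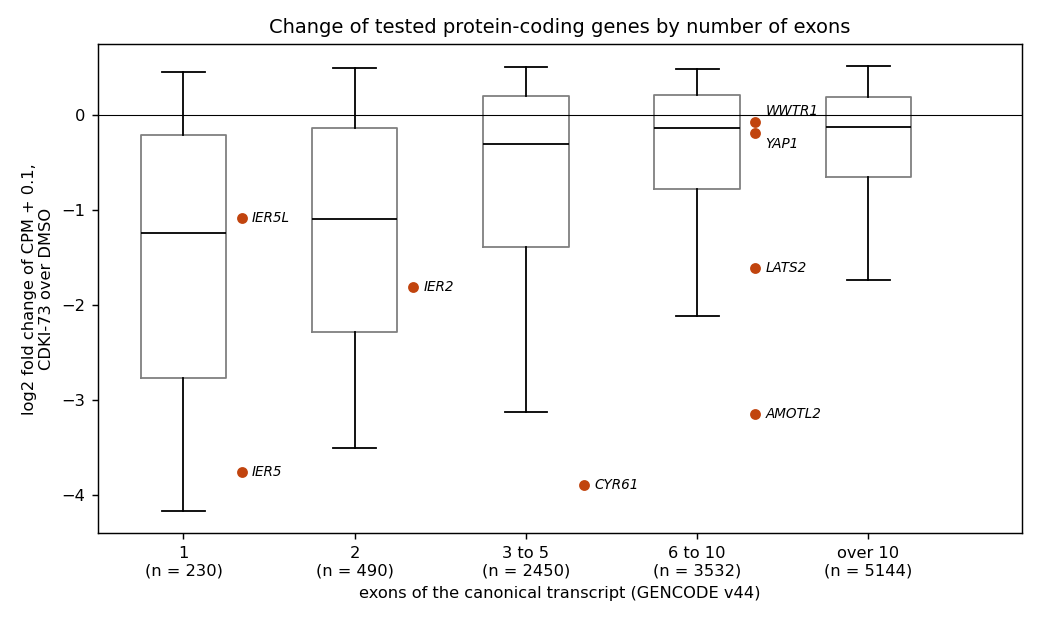
Log2 fold change of CPM + 0.1, CDKI-73 over DMSO (vertical axis), of tested protein-coding genes by number of exons of the canonical transcript (horizontal axis), with boxes from the 25th to the 75th percentile, the median as a line and whiskers at the 5th and 95th percentiles. The red points are the 8 tested genes beside their own class, where CYR61 and AMOTL2 lie below the whiskers and IER5L, YAP1 and WWTR1 lie near the medians.

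The rest of the pathway was described from lists written from general knowledge, with earlier results of these data known, so their counts and medians are descriptions. Of 7 tested genes for YAP, TAZ, the TEAD factors and their partner VGLL4, 6 fell and 0 rose at the adjusted p, with a median of -0.82 against -0.18 for all genes tested, of which 48.2% fell and 24.2% rose. VGLL4, which competes with YAP for TEAD, had 34.9 ± 1.94 CPM in CDKI-73 samples and 76.0 ± 2.66 CPM in DMSO samples (SD, n = 3 each), a change of -1.12 on the log2 scale (limma, adjusted p = 5.01e-07). TEAD1 (-0.97), TEAD4 (-0.90) and TEAD3 (-0.82) fell by less than 2-fold. Scaling to the upper quartile gave 4 lower and 2 higher.

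Of 25 tested genes of the Hippo kinase cascade, LATS2 included, 12 fell, 4 rose and 9 did not pass, with a median of -0.19. Over all genes tested, 48.2% fell and 24.2% rose, with a median of -0.18, so this list fell no more often than all genes tested. The genes named next had, with LATS2, its largest changes, while the 4 that rose did so by at most 0.63 on the log2 scale. FRMD6, an upstream FERM protein, had 0.317 ± 0.0723 CPM in CDKI-73 samples and 1.82 ± 0.174 CPM in DMSO samples, a log2 fold change of -2.22. TAOK1, a kinase that acts on the cascade from above, fell by 1.53 and LATS1, the partner kinase of LATS2, fell by 1.52 on the log2 scale. The split of this list turned with scaling, to 10 lower and 12 higher with the upper quartile. A mixed list held antagonists of the cascade, YAP-binding scaffolds and genes that act in YAP degradation. It thus pools genes that act with the cascade and against it, and its counts describe no single role. Of its 21 tested genes, AMOTL2 included, 15 fell and 3 rose, with a median of -0.75. With the upper quartile 10 were lower and 7 higher (median -0.26). Among the 15 that fell were, beside AMOTL2, AJUBA (-1.68), a LIM protein that restrains LATS kinases, and CSNK1D (-1.51), which marks YAP for degradation.

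Of 22 genes of a YAP and TAZ target signature, 12 were tested, CYR61, AMOTL2 and LATS2 included, and 9 fell, 2 rose and 1 did not pass, with a median of -0.53. Of all genes tested, 48.2% fell and 24.2% rose. With the upper quartile as the scale, 5 fell and 4 rose. NUAK2, an AMPK-related kinase, had 0.31, 0.17 and 0.15 CPM in CDKI-73 samples, against 5.99, 5.27 and 5.56 CPM in DMSO samples, a change of -4.24 on the log2 scale (limma, adjusted p = 3.15e-07). The NUAK2 groups did not overlap. GADD45A, a stress-response gene, fell by 1.82 on the log2 scale. The other 10 genes of the signature, CTGF, ANKRD1, AXL, F3, FJX1, FOXF2, CCDC80, NT5E, TGFB2 and RBMS3, had means below 0.5 CPM and were not tested.

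Of 25 tested immediate early genes outside the IER family, 21 fell, 3 rose and 1 did not pass, against 48.2% lower and 24.2% higher among all genes tested. Their median was -1.13, beside -1.81 for the 3 tested IER genes. With the upper quartile 14 fell and 3 rose (median -0.72), and without CDKI-73 replicate 3 the median was -0.95 with 21 lower and 3 higher. PLK2, a polo-like kinase, had 1.16 ± 0.497 CPM in CDKI-73 samples and 30.4 ± 0.818 CPM in DMSO samples, a log2 fold change of -4.67. SGK1 (-4.33), a serum-induced kinase, GADD45B (-3.24) and the transcription factor KLF4 (-3.12) came next. The genes that rose were JUND, FOS and EGR1, and were named after their values were seen. FOS had 0.963 ± 0.0473 CPM in CDKI-73 samples and 0.437 ± 0.0473 CPM in DMSO samples, EGR1 had 1.71 ± 0.0666 CPM after CDKI-73 and 0.860 ± 0.156 CPM in DMSO, and JUND had 99.9 ± 3.18 CPM after CDKI-73 and 48.5 ± 5.95 CPM in DMSO (SD, n = 3 each).

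Of 17 tested targets of SRF and its MRTF coactivators, together with the factors themselves, 3 fell, 9 rose and 5 did not pass, with a median of 0.21. The 3 that fell were the factors MKL2 (-2.04), SRF (-1.82) and MKL1 (-1.41), while TPM2, a tropomyosin, had the largest rise at 0.94. Scaled to the reference genes, 8 fell and 2 rose of 16 tested. ACTB is both a reference gene and on this list, so its own change is limited by construction. That scaling moved the median of all genes tested by -0.40. With the upper quartile 3 fell and 14 rose. Over all genes tested, 6441 fell and 3242 rose at the scale of the table, 5272 and 5133 with the median of gene ratios, 3931 and 7346 with the upper quartile, and 9919 and 387 with the reference genes. Without CDKI-73 replicate 3, 12 genes of the kinase cascade fell and 5 rose, 9 of the target signature fell and 3 rose, and 3 SRF and MRTF genes fell and 10 rose. Over all 13385 genes tested without that sample, 6663 fell and 3408 rose.

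**Figure D4:**
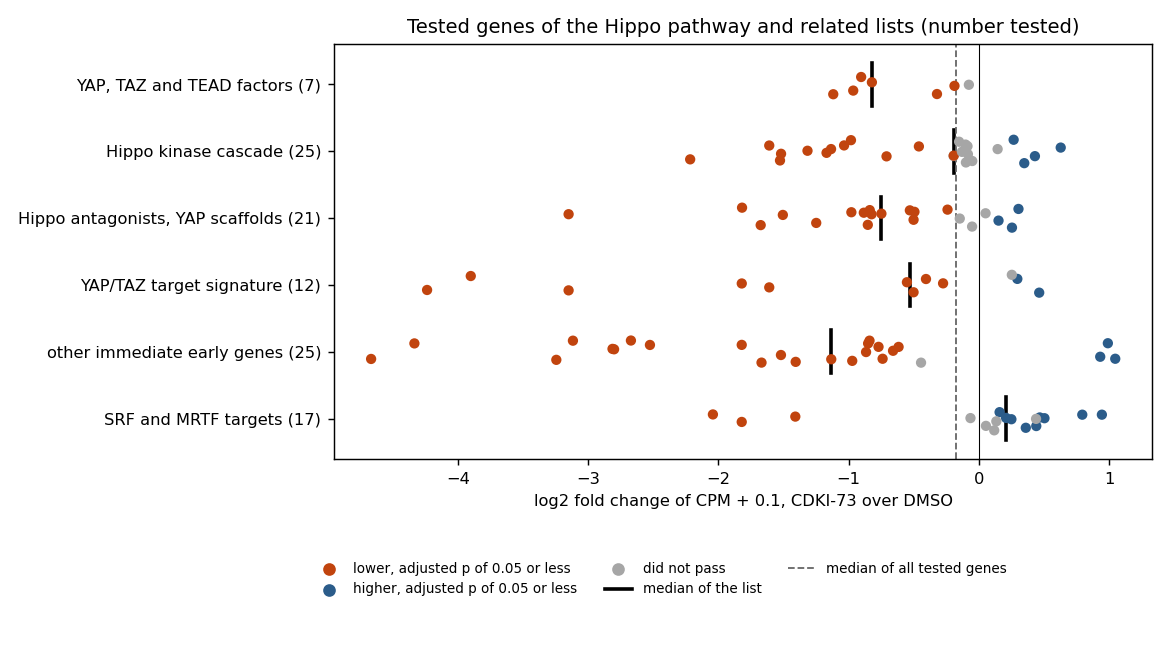
Log2 fold change of CPM + 0.1, CDKI-73 over DMSO (horizontal axis), of each tested gene in 6 lists, with red for genes that fell and blue for genes that rose past an adjusted p of 0.05, grey for the rest, and a black bar at the median of the list. The medians run between -1.13 for other immediate early genes and 0.21 for SRF and MRTF targets, with the median of all tested genes at -0.18 as a dashed line.

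For each tested member, the gene outside the 10 with the most similar pattern over the 6 samples was taken from 10206 genes with a mean of at least 5 CPM, by Pearson's r of log2(CPM + 0.1). With r of 0.9996 or more, these were RPUSD2 for IER2, BAHD1 for IER5, CHUK for IER5L, PIGA for CYR61, NFKB1 for AMOTL2 and ZNF277 for LATS2. The nearest genes were MTDH for YAP1 (0.9983) and PFAS for WWTR1 (0.9825). The 6 samples share their 2 groups, so pairs of genes that differ between the groups tend to a high r. Above 0.99 were 1615 genes with IER2, 1449 with IER5, 29 with IER5L, 2030 with CYR61, 1879 with AMOTL2 and 2125 with LATS2. YAP1 had 5 such genes and WWTR1 had 0. Because r does not depend on the size of a change, a nearest gene need not fall as far. PIGA had 8.79, 9.12 and 6.88 CPM in CDKI-73 samples and 27.41, 27.97 and 28.31 CPM in DMSO samples. This was a smaller fall than that of CYR61. RPUSD2, with 3.77, 3.31 and 3.47 CPM against 13.31, 11.88 and 11.71 CPM, fell about as far as IER2.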

How the data were processed

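PolyA+ RNA of the 6 samples was sequenced as stranded single-end reads of 75 bp. Per the submitters' processing notes the authors used FastQC, STAR, edgeR 3.3, R 3.2.3 and genome build hg38. The values deposited by the authors are CPM per gene symbol, rounded to 2 decimals, each column with the same total within rounding, so that no TMM factor is in them. The gene annotation and the strand counted were not given in the sources used here, and antisense genes overlap IER2, IER3, IER5L, CTGF, YAP1 and WWTR1, and a pseudogene overlaps AMOTL2, so that reads could have been shared. CDKI-73 also stands in the titles of samples treated with DMSO, and the treatment label decided the groups.

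Because CPM are not counts, log2(CPM + 0.1) was tested with limma 3.58.1 in R 4.3.3 (eBayes with an intensity trend) for 13373 genes with a mean of at least 0.5 CPM, CDKI-73 against DMSO, with Benjamini-Hochberg adjustment over all of them. A call needed an adjusted p of at most 0.05 together with a 2-fold difference. Ratios within samples were compared by an exact permutation test. Counted reads were inferred as the total between 30 and 75 M at which most low values are whole reads within the rounding of 0.01 CPM. This total was then refined nearby on values up to 2000 CPM, taking the median of tied totals. At the totals found, 100% of the values up to 2000 CPM fit. Intervals and floors cover counting error only. Gene models came from GENCODE v44, which placed 12463 of the tested genes (93.2%), and promoters from RefSeq. Tables were made with pandas 2.3.3 and scipy 1.17.1, and plots with matplotlib 3.10.9. The fit was also run on simulated data with independent noise and as many rises as falls. These data differ in that far more genes fell than rose, so that run says nothing on scaling.

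The 10 genes and all lists were chosen with earlier results of these data known. Named genes are the 10 members, in each list at most 4 genes that changed most among those past the adjusted p, and the gene nearest in pattern to each member. A gene that this rule names is not reported here. Alternatives were other pseudocounts, filters, scalings and limma settings, a replicate block, and each sample left out.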

Additional observations from a re-analysis of the deposited data

How the results depend on the processing

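IER2, IER5, CYR61, AMOTL2 and LATS2 kept their direction and stayed past the adjusted p and the 2-fold rule in all 16 alternatives, and IER5L kept its direction and adjusted p in all 15 that tested it, with a largest adjusted p of 5.00e-03 from limma. Over these alternatives the log2 fold changes ran between -2.21 and -1.31 for IER2, -4.12 and -2.49 for IER5, -1.46 and -0.63 for IER5L, -4.28 and -2.89 for CYR61, -3.51 and -1.96 for AMOTL2, and -2.01 and -1.12 for LATS2. The count of members called lower was 5 or 6 and that called higher was 0. IER5L was -0.65 with 1 CPM added, -0.90 with the median of gene ratios and -0.63 with the upper quartile, all less than 2-fold, and was not tested under the filter of 2 CPM.

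Scaling moved the median gene by 0.20 (median of gene ratios), 0.49 (upper quartile) and -0.40 (reference genes) on the log2 scale, and YAP1 and WWTR1 moved with it. YAP1 was 0.013 (adjusted p = 0.814) with the median of gene ratios, 0.31 (adjusted p = 4.69e-04) with the upper quartile and -0.60 (adjusted p = 6.52e-05) with the reference genes. WWTR1 was 0.12 (adjusted p = 0.170), 0.41 (adjusted p = 8.61e-04) and, with the reference genes, -0.48 (adjusted p = 1.14e-03), all from limma. With 1 sample left out, the changes lay between -1.85 and -1.76 for IER2, -4.02 and -3.55 for IER5, -1.22 and -1.01 for IER5L, -4.08 and -3.62 for CYR61, -3.27 and -2.96 for AMOTL2, -1.67 and -1.50 for LATS2, -0.23 and -0.16 for YAP1, and -0.11 and -0.02 for WWTR1, and the within-sample ratios between -2.80 and -2.54 (IER5 to IER5L) and -0.20 and -0.07 (YAP1 to WWTR1). Same-numbered samples did not deviate together (correlations of -0.30, 0.11 and -0.23), and with the replicate block YAP1 stayed at -0.19 (adjusted p = 2.37e-02 from limma) and no call on a member changed. Genes called higher over the whole table numbered 148, against 52 with 1 CPM added, 52 with the stricter filter, 377 unfiltered, 236 with the median of gene ratios, 787 with the upper quartile and 71 with the reference genes. Genes called lower numbered 2986, against 1856 with the upper quartile, 2486 with the median of gene ratios, 4404 with the reference genes, 2606 with 1 CPM added, 2637 with the stricter filter and 3263 unfiltered. The ratio of CYR61 to CTGF was planned and could not be computed, since CTGF is listed at 0. For IER3, the few reads counted limit what can be seen, and CTGF has no reads to compare.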
